A study of Mus musculus with 2 samples.

Results

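The 9 transcription factor genes described here, Tbr1, Fezf2, Bcl11b, Tle4, Foxp2, Foxp1, Sox5, Zfpm2 and Etv1, mark or specify the deep layers of the cerebral cortex. They were taken by symbol from the GENCODE M21 annotation and make up 9 of its 21938 protein-coding genes. Each gene was given a window of its record plus 10 kb on each side. A peak is an interval where DNase I cut often enough to be called accessible. Peaks whose midpoint lay in a window numbered 135 of 93641 in replicate 1 and 75 of 66196 in replicate 2. A footprint is a short stretch that is cut less than its surroundings, as where a bound protein shields the DNA. The windows held 313 of 234094 footprints in replicate 1 and 164 of 154015 in replicate 2. Those at most 500 bp from the start of an annotated transcript (transcription start site, TSS) are called promoter peaks or footprints, and all others distal.

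DNase-seq was done on frontal cortex of female B6CASTF1/J mice, the first-generation cross of C57BL/6J and CAST/EiJ, at an age of 14 days. There was 1 group, with no treatment, mutation or transgene in the labels, and it held 2 libraries labelled biological replicates 1 and 2. They came from separate biosamples under the same donor label. A label of both carries the mark 3x without saying what it counts, so pooling of animals is unknown and the spread between the libraries may be technical. The design has no contrast to test, and the values below are given per library.

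Deep layer neurons of the cortex send their axons out of it. Layer 6 holds corticothalamic neurons and layer 5 holds subcerebral neurons, whose axons reach the brainstem and spinal cord. Tbr1, a T-box factor, and Fezf2, a zinc finger repressor, specify these fates and oppose each other. Bcl11b (Ctip2) acts below Fezf2 in subcerebral neurons, Tle4 is a Groucho family corepressor of corticothalamic neurons, and Sox5 sets the order in which deep layer subtypes arise. Most of these genes are still transcribed in deep layer neurons after birth, beside upper layer neurons, interneurons and glia. In bulk tissue, more accessible sites per cell and more cells that carry the site cannot be told apart.

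Peak strength is the authors' signal for each peak, normalised for read depth, on a scale that is not stated. The median strength of member peaks was 0.556 in replicate 1 and 0.566 in replicate 2, beside 0.663 and 0.712 over all peaks. Strengths were whole multiples of 0.0067 in replicate 1 and 0.00858 in replicate 2, within 0.05 of a step for 100% of peaks. Member peaks spanned 34 to 1795 steps in replicate 1 and 22 to 765 in replicate 2, so the weakest of them rest on few steps. Total reads are unknown. The tissue label was checked against marker genes. All 5 cortical excitatory neuron markers (Slc17a7, Neurod6, Neurod2, Emx1, Camk2a) had a promoter peak in replicate 1, and 2 of them, Neurod6 and Camk2a, also in replicate 2. That share of 2 of 5 in both libraries (40%) was below the 58.2% of all protein-coding genes. Every one of the 5 cortical markers had a distal peak in both libraries. Of the 5 cerebellar and hindbrain markers, 1 had a promoter peak in replicate 1 (En2, strength 0.395) and 0 had one in replicate 2. The same counts held for the 5 liver and muscle markers, where the single peak was at Alb (0.154). A distal peak in both libraries was called at 2 of 5 cerebellar and hindbrain markers and 4 of 5 liver and muscle markers. The share was 56.2% for all protein-coding genes, so the distal measure separated the cortical list little from liver and muscle.

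Accessible promoters were found at most of the genes. A peak within 500 bp of one of the gene's own TSSs was called at 7 of 9 members in replicate 1 and 8 of 9 in replicate 2. It was called in both libraries at 7 of 9, all but Fezf2 and Bcl11b, which is 77.8% beside 58.2% of all protein-coding genes. The members have 2 to 22 annotated TSSs each, and the comparison was not matched for that number. A distal peak was called in both libraries at 8 of 9 members (88.9%), beside 56.2% of all protein-coding genes, whose windows have a median of 37.4 kb against 170 kb for the members. The distal count was 106 in replicate 1 and 55 in replicate 2, a mean of 80.5 ± 36.1 (SD, n = 2). Per 100 kb of window this was 3.45 and 1.79 distal peaks, beside 3.61 and 2.35 over the pooled windows of all protein-coding genes. The median per gene was 3.29 and 1.62 for the members, beside 2.82 and 1.67 for all genes, so by median the members were above all genes in replicate 1 and slightly below them in replicate 2.

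**Figure D1:**
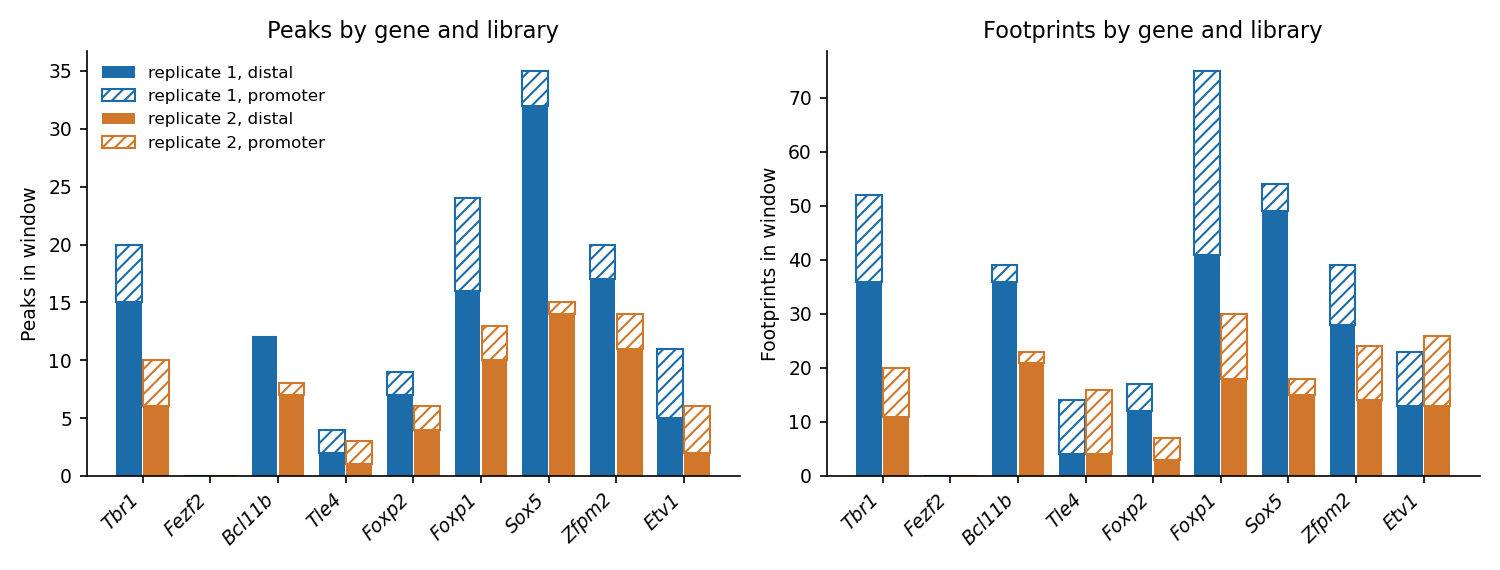
Number of peaks (left) and footprints (right) in the window of each gene, by library (blue, replicate 1; orange, replicate 2), with distal ones solid and promoter ones hatched. Sox5 has the most peaks in each library, 35 in replicate 1 and 15 in replicate 2, followed by Foxp1 in replicate 1 (24) and Zfpm2 in replicate 2 (14), and the bars of Fezf2 are at 0.

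Within the windows, 89 of the 135 peaks of replicate 1 and 51 of the 75 of replicate 2 had their midpoint in an intron. Exons held 25 and 12, upstream flanks 16 and 9, and downstream flanks 5 and 3. Some peaks lay just outside the promoter limit. In replicate 1, 14 peaks lay between 500 and 1000 bp from the nearest TSS of their gene, and in replicate 2 there were 9. Shares of all peaks at these places and distances were not computed, so the counts describe the members and do not set them apart from other genes. The peaks at 500 to 1000 bp are taken up next. They include the strongest peaks of Foxp2, Foxp1 and Etv1 in replicate 1, described with each gene below. Counting them as promoter peaks, with a limit of 1000 bp, raised the number of members with a promoter peak in both libraries to 8, as Bcl11b then had one.

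Sequences are shown for sites picked by a rule. For each gene with peaks this is the strongest peak of replicate 1 of at most 300 bp that overlaps a peak of replicate 2. Zfpm2 has a second site, chosen after its values were seen. The length limit leaves out stronger peaks of replicate 1 at Etv1 (2.03), Foxp1 (1.45) and Tbr1 (0.958). Letters come from the NCBI RefSeq assembly GRCm38.p6 (mm10), plus strand, 5′ to 3′. They are the C57BL/6J reference, and the CAST/EiJ allele was not read. Capitals mark bases that lie inside footprints of both libraries.

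Tbr1 encodes the T-box factor that directs layer 6 corticothalamic identity. Its record (ENSMUSG00000035033.15) spans chromosome 2, 61802930 to 61814114, on the plus strand, in a window of 31.18 kb. The window held 20 peaks in replicate 1 and 10 in replicate 2, of which 15 and 6 were distal, a mean of 10.5 ± 6.36 (SD, n = 2). That is 48.1 distal peaks per 100 kb in replicate 1 and 19.2 in replicate 2, a density above that of 99.8% and 99.2% of all protein-coding genes. Some of these calls overlap each other within a library. Merging them left 13 regions in replicate 1 and 9 in replicate 2, of which 11 and 6 were distal. Peaks were not merged for the densities, at Tbr1 or at the other genes. Tbr1 was the densest of the 9 genes in each library. Its peaks were many but none was among the strongest of its library. The highest strength was 0.958 in replicate 1 and 0.892 in replicate 2, both in the promoter region around 61803973 to 61805929. These are at percentiles 67 and 61.7 of their libraries. The median strength at Tbr1 was 0.546 and 0.678, beside 0.663 and 0.712 over all peaks. The strongest distal region lay downstream of the gene, at 61815581 to 61816040, with strengths of 0.924 and 0.678 (mean 0.801 ± 0.174, SD, n = 2). The peak midpoints ran from position -337 to position 13356 relative to the record's 5′ end, and none lay in the end of the neighbouring gene Psmd14 that the window also covers.

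The libraries differed at Tbr1. With the authors' stricter peak list the window kept 13 distal peaks in replicate 1 and 0 in replicate 2. Footprints numbered 52 in replicate 1 and 20 in replicate 2. Of these, 5 of 52 (9.62%) and 5 of 20 (25.0%) overlapped one of the other library, the lowest shares of the 8 members with footprints. The downstream site shown first has no base inside footprints of both libraries, so its letters stay in lower case. It holds the neurogenic E-box CAGATG at bases 75 to 80, outside the footprints of each library.
Tbr1 chr2:61814941-61815200: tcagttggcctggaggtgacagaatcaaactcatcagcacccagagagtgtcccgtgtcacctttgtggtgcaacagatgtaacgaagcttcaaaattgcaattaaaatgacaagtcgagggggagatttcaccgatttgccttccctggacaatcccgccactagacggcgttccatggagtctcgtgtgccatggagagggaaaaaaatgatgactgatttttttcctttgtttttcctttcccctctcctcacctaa

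Sox5 encodes a SoxD factor that times the birth of deep layer subtypes and represses subcerebral genes in layer 6 and subplate neurons. Its record (ENSMUSG00000041540.16; chromosome 6, 143828425 to 144781977, minus strand) is the longest of the 9, with a window of 973.6 kb. It had 35 peaks in replicate 1 and 15 in replicate 2, and 32 and 14 of them were distal (mean 23.0 ± 12.7, SD, n = 2). By count this exceeds 99.7% of protein-coding genes in replicate 1 and 99.3% in replicate 2. By density, at 3.29 and 1.44 distal peaks per 100 kb, Sox5 exceeded 55.1% and 47.8% of genes, close to the middle. When the same number of strongest peaks was taken from each library, the distal counts were 16 and 14, so the excess of replicate 1 lay in its weakest peaks.

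The strongest region of Sox5 lay in intron 3 of the Sox5-201 transcript, at 144056781 to 144057160, 725006 bp inside the record. Its strength was 1.11 in replicate 1 and 0.935 in replicate 2 (mean 1.02 ± 0.12, SD, n = 2). The promoter region at the 5′ end of the record had 0.871 and 0.789. Of 35 merged regions, 12 were called in both libraries, and the region in intron 3 had the highest mean of these. Only 4 bases of the intronic site lay in footprints of both libraries, and it matched none of the consensus letters searched. The antisense records Sox5os1 to Sox5os5 lie in the window, and DNase cuts carry no strand, so sites cannot be assigned between them and Sox5.
Sox5 chr6:144056801-144057040: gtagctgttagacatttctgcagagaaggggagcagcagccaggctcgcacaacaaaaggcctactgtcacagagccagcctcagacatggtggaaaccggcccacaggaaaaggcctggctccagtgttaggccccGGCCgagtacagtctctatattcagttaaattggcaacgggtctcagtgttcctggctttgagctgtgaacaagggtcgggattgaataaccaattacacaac

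Tle4 encodes a Groucho corepressor that has no DNA-binding domain of its own and marks layer 6 corticothalamic neurons. Its record (ENSMUSG00000024642.17) spans chromosome 19, 14448150 to 14598051, on the minus strand. Accessibility here was almost wholly at the start of the gene. The strength of the promoter peak was 12.0 (replicate 1) and 6.56 (replicate 2) (mean 9.29 ± 3.86, SD, n = 2), which ranks 24 of 93641 and 105 of 66196 in the libraries. The other peaks of the window were at most 0.797 in either library. The window of 169.9 kb held 2 distal peaks in replicate 1 and 1 in replicate 2. By distal density Tle4 exceeded 35.6% of genes in replicate 1 and 42.2% in replicate 2.

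Tle4 also had the highest shares of footprints found in both libraries. Of the 14 footprints in its window in replicate 1, 10 overlapped one of replicate 2 (71.4%), and of the 16 in replicate 2, 12 overlapped one of replicate 1 (75.0%). The site printed here, centred at -330 relative to the TSS, has 102 of 240 bases inside footprints of both libraries, in 5 runs. It has a GC content of 67.1% and 24 CpG. The SP/KLF letters GGGCGGGG lie at bases 104 to 111 and CACGTG at bases 128 to 133, each wholly inside footprints of both libraries. The search for CACGTG was added after these sequences were seen.
Tle4 chr19:14598261-14598500: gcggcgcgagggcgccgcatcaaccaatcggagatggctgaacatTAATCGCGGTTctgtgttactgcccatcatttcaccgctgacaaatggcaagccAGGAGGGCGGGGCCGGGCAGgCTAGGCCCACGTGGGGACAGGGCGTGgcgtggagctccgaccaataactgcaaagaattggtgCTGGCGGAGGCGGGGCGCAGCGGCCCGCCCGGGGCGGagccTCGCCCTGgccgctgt

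Foxp2 encodes a forkhead factor of layer 6 neurons, known from human speech disorder. Its record (ENSMUSG00000029563.16; chromosome 6, 14901349 to 15441977, plus strand) has a window of 560.6 kb and was sparse. There were 9 peaks in replicate 1 and 6 in replicate 2, 7 and 4 of them distal, or 1.25 and 0.713 per 100 kb. The density exceeded 36.0% of genes in replicate 1 and 42.7% in replicate 2. Its strongest region lay just upstream, at 14900441 to 14900960, with strengths of 1.33 and 1.11 (mean 1.22 ± 0.155, SD, n = 2). The promoter region beside it had 0.683 and 0.652. Deep in the gene, a site in intron 16 at 15415250 to 15415376 had 0.536 and 0.532, and a site in intron 3 at 15310700 to 15310884 had 0.409 and 0.420. These 4 regions were called in both libraries and differed between them by at most 1.2 times. The remaining 6 of 10 regions were called in 1 library. With the stricter list Foxp2 had a promoter peak in replicate 1 and none in replicate 2.

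The upstream Foxp2 site was picked by the rule given above, and it outranks the gene's promoter in strength. Only 20 of its 280 bases lay in footprints of both libraries. It holds CACGTG at bases 41 to 46, outside the footprints of each.
Foxp2 chr6:14900681-14900960: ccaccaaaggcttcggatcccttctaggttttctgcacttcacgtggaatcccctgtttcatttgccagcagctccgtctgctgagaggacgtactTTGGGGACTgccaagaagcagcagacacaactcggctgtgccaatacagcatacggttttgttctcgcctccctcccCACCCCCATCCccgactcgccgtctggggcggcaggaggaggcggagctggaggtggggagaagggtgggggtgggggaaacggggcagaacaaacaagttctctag

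Zfpm2 (Fog2) encodes a multitype zinc finger cofactor of GATA factors that is expressed in layer 6 corticothalamic neurons. Its record (ENSMUSG00000022306.9; chromosome 15, 40655035 to 41104592, plus strand) lies in a window of 469.6 kb. It had 20 peaks in replicate 1 and 14 in replicate 2, of which 17 and 11 were distal (mean 14.0 ± 4.24, SD, n = 2). By density, 3.62 and 2.34 per 100 kb, it exceeded 58.6% and 57.2% of genes. The strongest sites were far from the TSS. In intron 5 of Zfpm2-201, the site at 41079741 to 41079920 had strengths of 1.61 in replicate 1 and 1.80 in replicate 2 (mean 1.71 ± 0.132, SD, n = 2). A second site of intron 5, at 41029841 to 41030000, had 1.51 and 1.34 (mean 1.42 ± 0.119, SD, n = 2). The strongest promoter region had 0.971 and 0.695, weaker than both intronic sites in each library.

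Both intron 5 sites carry the consensus of CTCF, the zinc finger protein that binds insulators and loop anchors. The consensus lies at bases 86 to 98 of the first site and 63 to 75 of the second, and all 13 bases of each lie inside footprints of both libraries. The 2 sites are the only places among the footprints of the 9 genes where the full CTCF consensus was found, in each library. The search allowed no mismatch, so partial matches at other sites were not counted. The first has a GC content of 33.9% and the second 51.2%.
Zfpm2 chr15:41079741-41079920: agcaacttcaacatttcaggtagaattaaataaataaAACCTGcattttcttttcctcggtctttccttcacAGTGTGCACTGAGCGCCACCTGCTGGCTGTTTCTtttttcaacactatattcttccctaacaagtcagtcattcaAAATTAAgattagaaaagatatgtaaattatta
Zfpm2 chr15:41029841-41030000: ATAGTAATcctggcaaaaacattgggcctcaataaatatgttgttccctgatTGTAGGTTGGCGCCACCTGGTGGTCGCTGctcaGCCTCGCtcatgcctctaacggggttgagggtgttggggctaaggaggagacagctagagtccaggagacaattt

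Fezf2 encodes the zinc finger factor that specifies subcerebral neurons of layer 5. Its record (ENSMUSG00000021743.6) spans chromosome 14, 12342094 to 12348189, on the minus strand, in a window of 26.1 kb. The files used here list 0 peaks, 0 footprints and 0 stretches of the cut-rate call described below in that window, in either library. No peak in the window of either library was found for 18.2% of all protein-coding genes. Around Fezf2 the empty stretch was wider than the window. In the cut-rate list of replicate 1 nothing was listed for 77.2 kb (12300917 to 12378116), and in replicate 2 for 136 kb (12300955 to 12436922). Whether reads were absent there or rows are missing from the lists cannot be told from them, so the 0 is given as a listing and not as closed chromatin. The 1 kb around the record's 5′ end had the lowest ratio of observed to expected CpG of the 9 genes, 0.216, followed by Tbr1 at 0.255. The other 7 had 0.596 (Etv1) to 1.05 (Tle4). Only the outermost 5′ end of each record was measured, while Fezf2 has 3 TSSs and Tbr1 has 4. The strongest Tbr1 promoter peak of replicate 1 lay at an inner TSS, 1561 bp inside the record, which this ratio does not cover.

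Bcl11b encodes the zinc finger factor CTIP2, which subcerebral neurons of layer 5 need to extend their axons. It is also expressed in cortical interneurons and in striatal neurons. Its record (ENSMUSG00000048251.15; chromosome 12, 107910403 to 108003602, minus strand) lies in a window of 113.2 kb. There were 12 peaks in replicate 1 and 8 in replicate 2, of which 12 and 7 were distal (mean 9.50 ± 3.54, SD, n = 2), or 10.6 and 6.18 per 100 kb. That density exceeded 91.9% of genes in replicate 1 and 87.4% in replicate 2. After Tbr1, Bcl11b was the densest member in each library.

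The strongest Bcl11b site lay in intron 1, 4473 bp from the nearest TSS of the gene and 4661 bp inside the record. Its strengths were 2.63 in replicate 1 and 2.29 in replicate 2 (mean 2.46 ± 0.242, SD, n = 2). It was the strongest distal region of all 9 genes. The peak nearest the TSS had its midpoint at -559 in replicate 1 and -478 in replicate 2, with strengths of 2.10 and 1.29. It therefore counted as distal in one library and as promoter in the other, although the peaks overlap. A further upstream region at -2839 had 1.58 and 0.935, and a region in intron 2 at 107969821 to 107970120 had 1.65 and 0.918. Of 12 merged regions, 7 were called in both libraries (58.3%), the highest share of the 8 genes with regions.

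The intron 1 site has 38 of its 200 bases inside footprints of both libraries, in 2 runs, and a GC content of 60.5%. The longer run covers the letters GCCCCCTA, the reverse complement of TAGGGGGC, at bases 113 to 120. These letters were searched after the sequence was seen, and whether they are part of a near match to the CTCF consensus was not tested. Footprints with them made up 0.457% of distal member footprints in replicate 1 and 1.01% in replicate 2, which is 1 footprint in each, beside 0.549% and 0.746% of all distal footprints.
Bcl11b chr12:107998841-107999040: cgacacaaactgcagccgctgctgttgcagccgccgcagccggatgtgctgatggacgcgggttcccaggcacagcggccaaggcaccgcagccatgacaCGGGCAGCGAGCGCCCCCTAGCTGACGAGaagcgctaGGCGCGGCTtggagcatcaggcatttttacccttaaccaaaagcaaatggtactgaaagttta

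Etv1 (Er81) encodes an ETS factor of layer 5 pyramidal neurons. Its record (ENSMUSG00000004151.17; chromosome 12, 38779380 to 38870484, plus strand) has a window of 111.1 kb. Peaks clustered at the start of the gene, with 6 promoter and 5 distal peaks in replicate 1 and 4 promoter and 2 distal peaks in replicate 2. No peak lay beyond 10781 bp from the record's 5′ end. The region centred at -569 had strengths of 2.03 in replicate 1 and 1.04 in replicate 2 (mean 1.53 ± 0.701, SD, n = 2). The strongest promoter region, at 38780041 to 38780780, had 1.49 and 1.08 (mean 1.29 ± 0.292, SD, n = 2). Etv1 was, with Tle4, one of the genes that had more footprints in replicate 2 than in replicate 1, 26 against 23. Only 4 bases of the promoter site shown lay in footprints of both libraries, and it matched none of the consensus letters searched.
Etv1 chr12:38780081-38780360: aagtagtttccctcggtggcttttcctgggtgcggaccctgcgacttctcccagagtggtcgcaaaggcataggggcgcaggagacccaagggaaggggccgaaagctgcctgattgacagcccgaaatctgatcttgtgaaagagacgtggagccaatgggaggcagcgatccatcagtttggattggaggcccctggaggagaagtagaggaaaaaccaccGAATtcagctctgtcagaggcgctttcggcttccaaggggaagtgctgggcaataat

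Foxp1 encodes a forkhead factor that pairs with Foxp2 and is expressed in several cortical layers and in striatal neurons. Its record (ENSMUSG00000030067.17; chromosome 6, 98925338 to 99522721, minus strand) lies in a window of 617.4 kb and has 22 TSSs, the most of the 9. It had 24 peaks in replicate 1 and 13 in replicate 2. Of these, 8 and 3 were promoter peaks, and 16 and 10 were distal (mean 13.0 ± 4.24, SD, n = 2), or 2.59 and 1.62 per 100 kb. The density exceeded 47.5% of genes in replicate 1 and 49.5% in replicate 2. Accessibility at the start of the gene was divided over neighbouring peaks. The promoter region at 99522821 to 99523100 had strengths of 1.31 in replicate 1 and 1.57 in replicate 2 (mean 1.44 ± 0.182, SD, n = 2). The region next to it, centred at -670, had 1.45 and 1.35 (mean 1.40 ± 0.0707, SD, n = 2).

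Farther in, an intronic region at 99485141 to 99485840 had 1.39 in replicate 1 and 0.901 in replicate 2. Alternative start sites inside the gene were called less evenly. A region at the TSS near 99096129 to 99096440 had 0.596 and 0.566, while the peaks at 99028221 to 99028889 (0.851) and 99266031 to 99266440 (0.596) were called in replicate 1 alone. The record of Gm20696, also annotated as protein-coding on the same strand, overlaps Foxp1 from 99257484 to its start, so peaks in that stretch cannot be assigned to one of them. The Foxp1 promoter site holds the CREB/ATF letters TGACGTCA at bases 182 to 189, the forkhead letters GTAAACA at 204 to 210 and the SP/KLF letters GGGCGGGG at 225 to 232. None of their bases lay in footprints of both libraries, and all 8 SP/KLF bases lay in a footprint of replicate 2.
Foxp1 chr6:99522821-99523100: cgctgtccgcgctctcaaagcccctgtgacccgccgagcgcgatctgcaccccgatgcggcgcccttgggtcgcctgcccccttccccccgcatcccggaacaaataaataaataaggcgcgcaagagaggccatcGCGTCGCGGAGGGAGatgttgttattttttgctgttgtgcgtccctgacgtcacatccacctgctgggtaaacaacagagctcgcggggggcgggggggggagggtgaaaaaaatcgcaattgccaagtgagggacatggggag

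**Figure D2:**
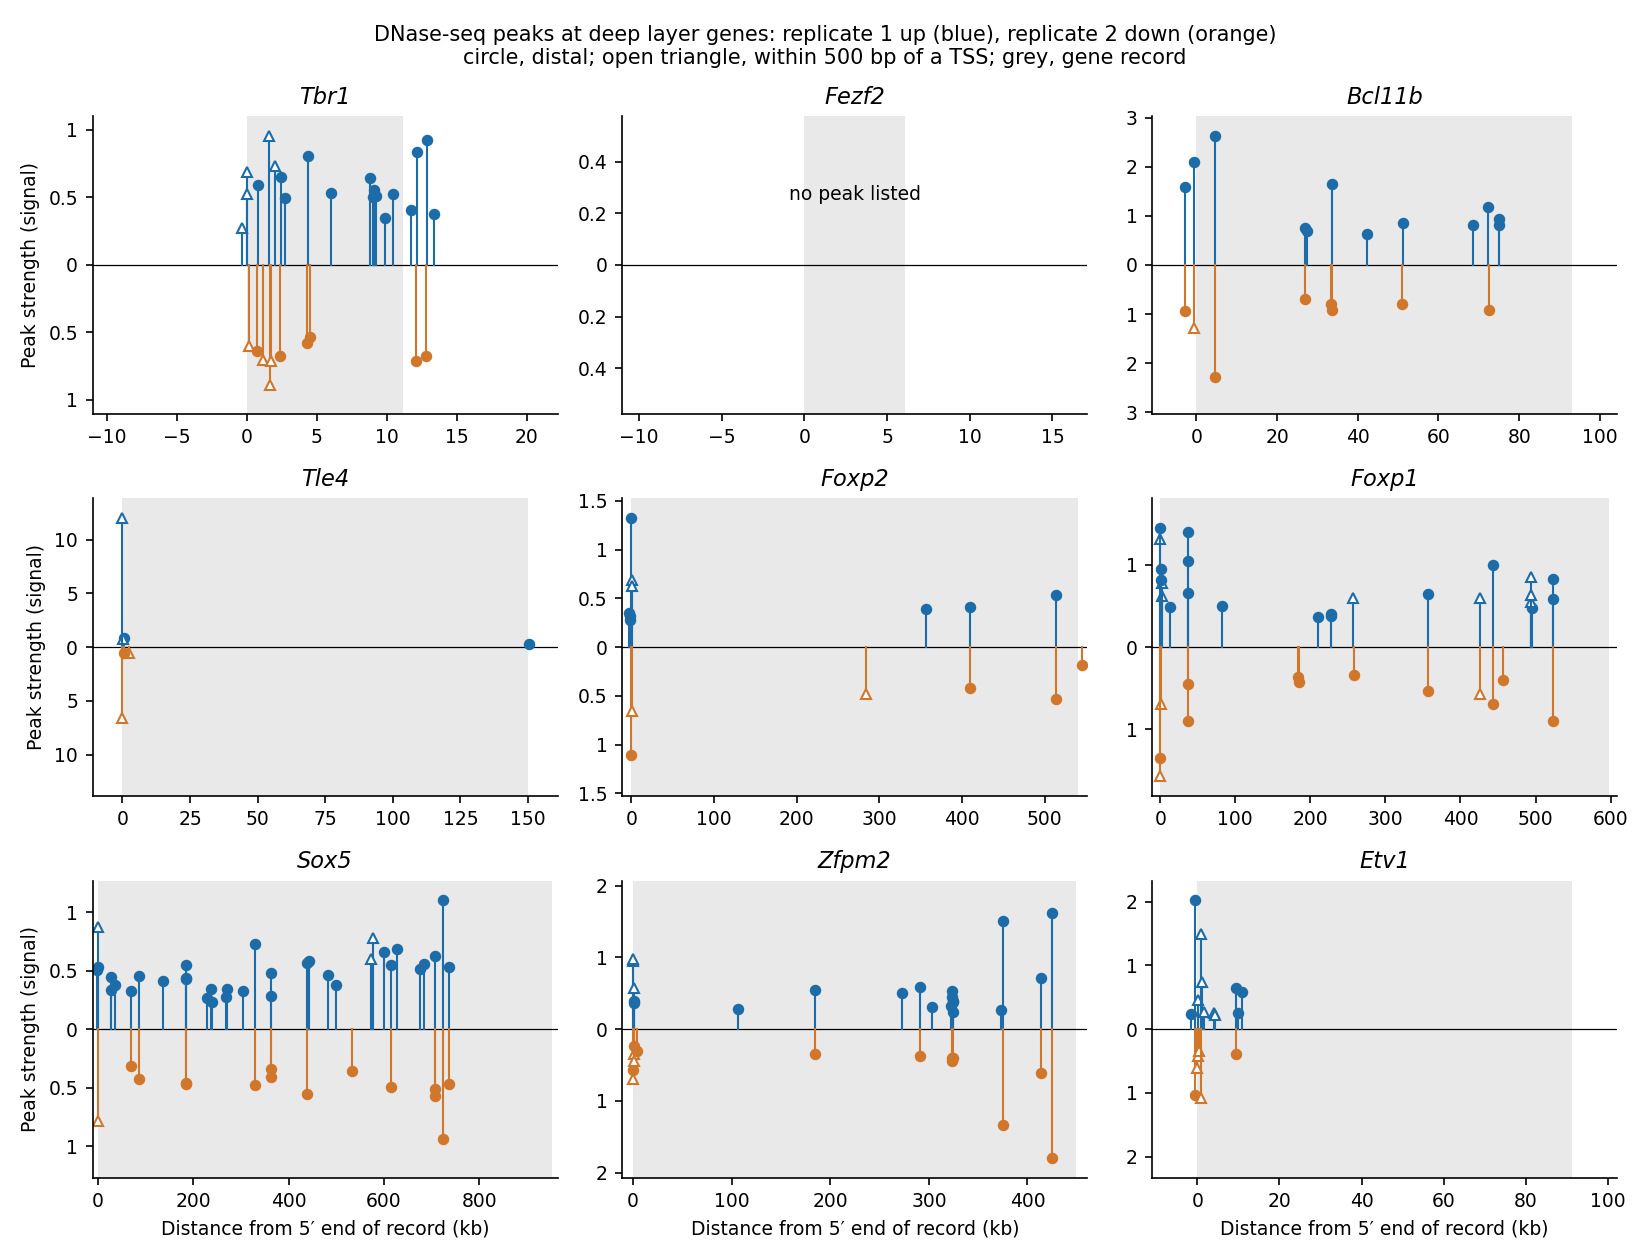
Peak strength (signal, vertical axis) against distance from the 5′ end of each gene record in the direction of transcription (kb, horizontal axis); replicate 1 points up in blue, replicate 2 down in orange, circles are distal peaks, open triangles promoter peaks, and the grey band is the gene record. Tle4 has 1 dominant promoter peak (12.0 and 6.56), Zfpm2 its strongest peaks far inside the gene, and Tbr1 peaks along its whole length; the vertical scale differs between panels.

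The replicates were then compared over all members. Of distal member peaks, 50 of 106 in replicate 1 (47.2%) and 47 of 55 in replicate 2 (85.5%) were shared, which here means touching a peak from the other replicate by 1 bp or more, beside 53.1% and 82.1% of all distal peaks. Promoter peaks of the members were shared for 14 of 29 in replicate 1 (48.3%) and 18 of 20 in replicate 2 (90.0%), beside 75.1% and 88.9% of all promoter peaks. Among the promoter peaks called in replicate 1 alone were those at inner start sites of Foxp1, which had 8 promoter peaks in replicate 1 and 3 in replicate 2, and of Etv1, which had 6 and 4. The strongest peak of every gene that had one was shared. After overlapping peaks of both libraries were merged, 53 of 125 member regions were called in both (42.4%), beside 52.5% of all regions. The share ran from 34.3% at Sox5 to 58.3% at Bcl11b.

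Over the 53 regions called in both libraries, replicate 1 was the stronger in 45, and the median log2 ratio of replicate 1 over replicate 2 was 0.23, a ratio of 1.17. Over all shared regions of the genome it was 0.33, a ratio of 1.25. The 11 promoter regions of the members had a median of 0.14, below the 0.54 of all promoter regions, while the 42 distal ones had 0.24, beside 0.23 for all distal regions. The largest promoter ratio was that of Tle4, 1.83 times stronger in replicate 1. At Foxp1 the promoter ran the other way, at 0.836 times, and at Etv1 the region over the first TSS did too, at 0.748 times. The largest ratio of all 53 was 1.96 at the Etv1 region centred at -569.

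**Figure D3:**
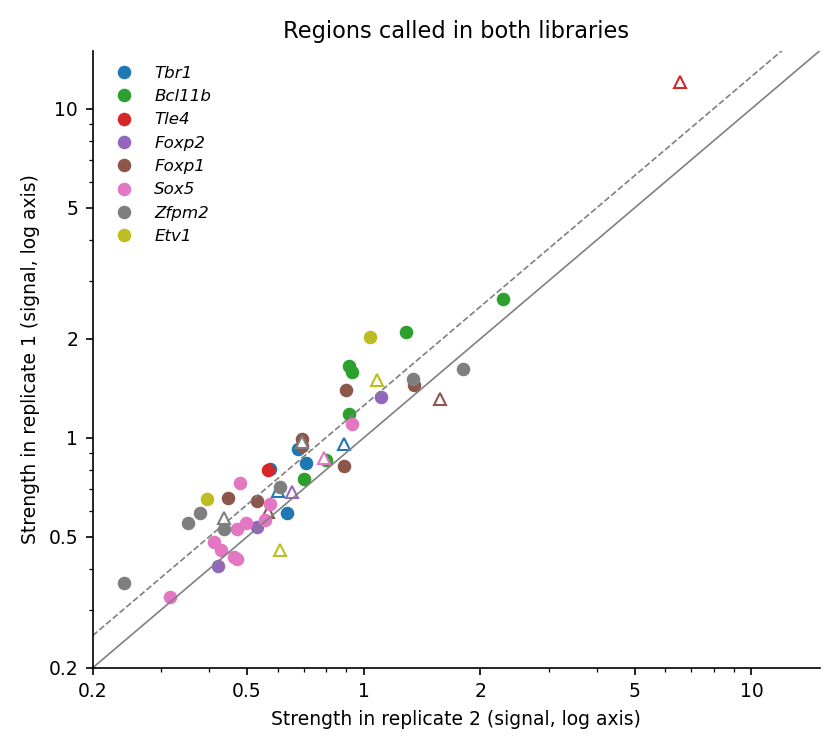
Strength in replicate 1 (vertical, log axis) against strength in replicate 2 (horizontal, log axis) for the 53 member regions called in both libraries, coloured by gene, with circles for distal and open triangles for promoter regions. The solid line marks equal strength and the dashed line the median ratio of all shared regions, 1.25; 45 of the 53 regions lie above the solid line.

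The authors also deposited a false discovery rate (FDR) of the cut rate for stretches of bases, and each stretch listed has an FDR below 0.05. In the Tbr1 window 250 bases per kb were listed in replicate 1 and 84.5 in replicate 2, more than in 99.7% and 96.8% of protein-coding genes. Etv1 followed with 36.2 and 22.7, then Bcl11b with 26.3 and 15.6, beside medians of 22.4 and 15.9 over all genes. The 5 other genes with listed bases were below the medians, from 13.9 and 11.7 at Tle4 to 4.18 and 1.90 at Foxp2. No stretch was listed for Fezf2, as for 16.9% of all protein-coding genes in both libraries. The lowest FDR of the authors in any member window was 2.24e-103 in replicate 1 and 6.61e-58 in replicate 2, both at Tle4. At Tbr1 the lowest was 3.20e-09 and 1.87e-04, so Tbr1 had the most listed bases per kb of the 9 genes but, in replicate 2, the highest of the lowest FDR values.

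**Figure D4:**
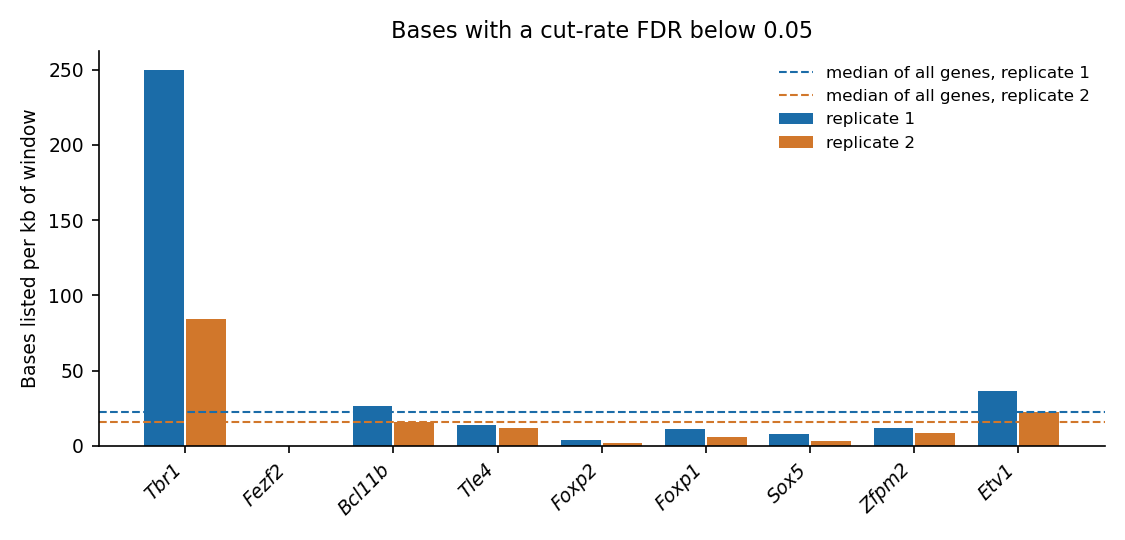
Bases per kb of window whose cut-rate FDR is listed below 0.05, by gene and library (blue, replicate 1; orange, replicate 2), with dashed lines at the medians of all protein-coding genes, 22.4 and 15.9. Tbr1 stands at 250 and 84.5, Etv1 is above both medians, and Tle4, Foxp2, Foxp1, Sox5, Zfpm2 and Fezf2, which is at 0, are below both.

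The share of footprints found in both libraries was below that of the genome. Of 313 in replicate 1, 73 overlapped one of replicate 2 by at least 1 bp (23.3%), beside 37.4% of all footprints. Of 164 in replicate 2, 77 overlapped one of replicate 1 (47.0%), beside 58.2% of all footprints. By gene the shares ran from 9.62% at Tbr1 to 71.4% at Tle4 in replicate 1, and from 25.0% at Tbr1 to 75.0% at Tle4 in replicate 2. The members' peaks were also weaker than the median peak, and the comparison of footprints was not matched for strength.

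Footprints, extended by 5 bp on each side, were searched on both strands for 11 short consensus sequences of factors active in cortex. They were TGGC and GCCA 5 bases apart (nuclear factor I), TGACGTCA (CREB/ATF), GCGTGGGC (EGR), TCACACCT (T-box), TGTTTAC (forkhead), CCGGAAGT (ETS), AACAAT (SOX), GGGCGGGG (SP/KLF), CAGATG or CATATG (neurogenic E-box), and those of CTCF and MEF2. A match describes letters and is not a binding site. At least 1 of them was found in 13 of 313 member footprints in replicate 1 (4.15%) and 9 of 164 in replicate 2 (5.49%), beside 8.58% and 8.86% of all footprints. These shares were not matched for kind. Promoter footprints were 94 of the 313 and 65 of the 164, beside 100049 of 234094 and 74545 of 154015 for all footprints. Most of the single consensus sequences are too rare in all footprints for counts over the members to be read. The forkhead letters occurred in 1 member footprint of replicate 1 (0.319%), at Etv1, and in none of replicate 2, beside 0.0585% and 0.061% of all footprints. The SOX letters also occurred in 1 footprint of replicate 1 (0.319%), at Etv1, and in none of replicate 2, beside 0.298% and 0.273%. The MEF2 consensus occurred in none of replicate 1 and in 1 of replicate 2 (0.61%), at Sox5, beside 0.029% and 0.0182%. No member footprint held the letters of T-box, ETS, nuclear factor I, CREB/ATF or EGR. Their shares over all footprints ran from 0.0299% (T-box) to 0.518% (nuclear factor I) in replicate 1 and from 0.0312% to 0.497% in replicate 2.

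The CTCF consensus was in 2 of 219 distal member footprints in replicate 1 (0.913%) and 2 of 99 in replicate 2 (2.02%), beside 3.03% and 4.45% of all distal footprints. All 4 are the Zfpm2 sites shown above. The neurogenic E-box, the target of NeuroD and Neurogenin factors, was in 6 of 219 distal member footprints in replicate 1 (2.74%) and 3 of 99 in replicate 2 (3.03%), beside 3.49% and 3.11% of all. These lay at Tbr1, Bcl11b, Foxp1, Sox5, Zfpm2 and Etv1, and none of the 9 was the same footprint in both libraries. The SP/KLF letters, common in CpG-rich promoters, were in 2 of 94 promoter footprints in replicate 1 (2.13%) and 3 of 65 in replicate 2 (4.62%), beside 5.76% and 5.49% of all promoter footprints. They were at Tle4 in both libraries and at Foxp1 in replicate 2. CACGTG, added after the sequences were seen, was in 6 of 313 footprints in replicate 1 (1.92%) and 2 of 164 in replicate 2 (1.22%), beside 0.773% and 0.775% of all footprints. Of the 6 in replicate 1, 4 lay outside peaks, and inside peaks the share was 2 of 282 (0.709%) in replicate 1 and 2 of 136 (1.47%) in replicate 2, beside 0.81% and 0.812%. Those found in both libraries were at the Tle4 promoter and upstream of Etv1.

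Each member was set beside the other genes of its family. Among 14 paralogues, 9 were open at the promoter in each library (64.3%), and Eomes, Tbx21, Fezf1 and Tle2 had none in either. Tbr1 was the one T-box gene of its family of 3 with a promoter peak. Fezf1, like Fezf2, had no peak or footprint in its window. Bcl11a had a promoter peak in replicate 1 alone (1.08), and Bcl11b in replicate 2 alone (1.29). In replicate 1 the overlapping Bcl11b peak (2.10) lay at -559, outside the limit. Distal peaks were 7 and 3 at Bcl11a and 12 and 7 at Bcl11b, in windows of 116.1 kb and 113.2 kb. Tle4 had the strongest promoter peak of its family at 12.0 and 6.56, above Tle3 at 7.68 and 4.41 and Tle1 at 7.08 and 3.95. In the ETS and FOG families the deep layer gene was the weaker one. Etv1 had 1.49 and 1.08, below Etv5 at 7.81 and 4.76 and Etv4 at 3.33 and 2.14, and Zfpm2 had 0.971 and 0.695, below Zfpm1 at 6.89 and 2.98. Among the forkhead genes Foxp1 (1.31 and 1.57) and Foxp4 (1.47 and 1.13) were above Foxp2 (0.683 and 0.652) and Foxp3 (0.623 and 0.618). The 500 bp limit leaves out regions just upstream of Foxp2 (1.33 and 1.11), Foxp1 (1.45 and 1.35) and Etv1 (2.03 and 1.04). Peaks beyond that limit were not compared within the families, and with its upstream region Foxp2 would not lie far below Foxp1 and Foxp4. Among the SoxD genes the 3 lay close, with Sox5 at 0.871 and 0.789, Sox6 at 0.797 and 1.12 and Sox13 at 1.17 and 1.37. By the mean of both libraries, the paralogue with the most distal peaks was Sox6 with 10 in replicate 1 and 5 in replicate 2, fewer than Sox5 with 32 and 14. Zfpm1 followed with 9 and 5 against 17 and 11 at Zfpm2. These counts are not scaled to window length. Windows were 587.9 kb at Sox6, 973.6 kb at Sox5, 75.11 kb at Zfpm1 and 469.6 kb at Zfpm2. Relative to window length Zfpm1 was denser than Zfpm2, which had 3.62 and 2.34 distal peaks per 100 kb.

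**Figure D5:**
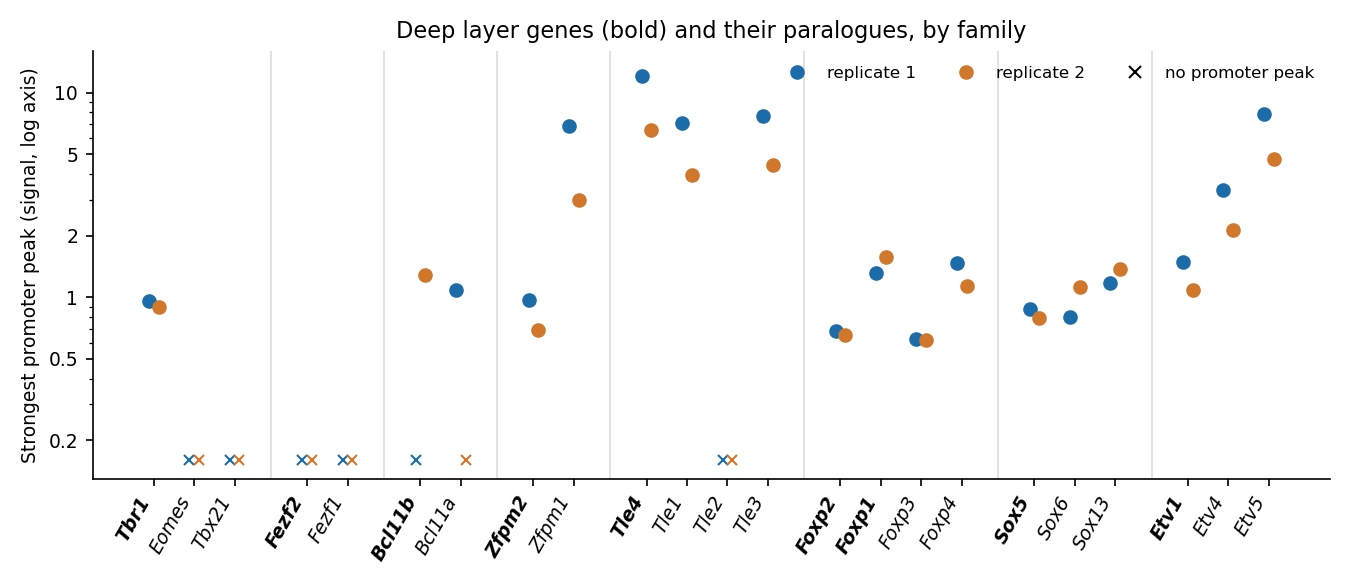
Strength of the strongest promoter peak (log axis) of each deep layer gene, in bold, and of its paralogues, by family and library (blue, replicate 1; orange, replicate 2); crosses mark genes with no promoter peak in that library. Tle4 is the highest of all at 12.0 and 6.56, while Zfpm2 and Etv1 lie below each of their paralogues in both libraries.

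Upper layer factors gave the nearest comparison by function. A promoter was called open in each library at 7 of the 9 deep layer genes and at 7 of 9 upper layer genes. Pou3f1 had none in either library. The median number of distal peaks was 12 in replicate 1 and 6 in replicate 2 for the deep layer genes, against 8 and 4 for the upper layer genes. Relative to window length the order was the opposite, with medians of 3.29 and 1.62 distal peaks per 100 kb for the deep layer genes and 5.6 and 3.83 for the upper layer genes. Median windows were 170 kb and 50.5 kb. The upper layer genes with the most distal peaks were Cux1 with 19 and 13 and Pou3f2, a short gene, with 16 and 12. No test of these lists was made, and the ranges of single genes overlap.

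Deep layer effector and marker genes, such as the calmodulin regulator Pcp4 and the neurotensin receptor Ntsr1, were examined last. A promoter peak in both libraries was found at 11 of 16 (68.8%), or at 7 with the stricter peak list, and in replicate 1 at 14. Nxph4 and Cplx3, markers of layer 6b and subplate neurons, had none in either library. The list's median number of distal peaks was 4 in replicate 1 and 2 in replicate 2. Tshz2, with 22 and 11, and Hs3st4, with 9 and 7, had the most. The 5 excitatory neuron markers had medians of 4 and 2 distal peaks, led by Camk2a (10 and 6) and Slc17a7 (4 and 3). The cerebellar and hindbrain markers had medians of 1 and 0, led by Cbln3 (4 and 4) and En2 (6 and 0), and Gabra6, En1, Cbln3 and Hoxb4 had no promoter peak in either library. The liver and muscle markers had medians of 1 and 1, equal to those of all protein-coding genes, led by Myh6 (3 and 2), and Apoa1, Ttr, Myh6 and Ckm had no promoter peak in either library. Windows of these lists are short, with medians of 25.6 kb for the cerebellar and hindbrain markers and 35.7 kb for the liver and muscle markers. Their pooled distal densities, 9.59 and 3.69 per 100 kb for the cerebellar and hindbrain markers and 4.71 and 2.95 for the liver and muscle markers, were above the 3.45 and 1.79 of the deep layer genes. The excitatory neuron markers, with a median window of 32.2 kb, had the highest pooled density of the lists in each library, 10 and 7.02. Over all protein-coding genes it was 3.61 and 2.35.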

How the data were processed

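Peaks, footprints and cut-rate calls were made by the authors for each library from its own alignments to mm10, per the deposited notes. The sources used here do not give aligner, caller, versions, filters or thresholds. Peak strength is the signal value of the authors' deposited peak files, normalised by them for read depth per the deposited notes. The deposited cut-rate files hold FDR values (p-value scale) for stretches of bases. The deposited footprint files hold 1 constant as their value, so positions alone were used. Each library has 2 deposited peak lists. The longer was used, and the shorter (53068 and 36975 peaks) was the stricter alternative.

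Coordinates were compared with GRCm38.p6, and 0 intervals reached past a chromosome end. Peaks and footprints were assigned by midpoint, promoters at 500 bp from any annotated TSS, with Python 3.11.15, numpy 2.4.6, pandas 2.3.3, scipy 1.17.1 and matplotlib 3.10.9. Overlap counts, window assignments and motif searches were tested on simulated data, with 0 differences from bedtools 2.31.1 for overlaps in 3000 simulated intervals. Regions are merged overlapping peaks of both libraries, with the maximum strength per library. Within a library, 2.26% (replicate 1) and 2.02% (replicate 2) of peaks overlap an earlier peak of the same list.

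The 9 members and the 6 comparison lists were chosen with earlier results of these data known. Named genes were all members with their strongest promoter and distal sites and, per comparison list, the 2 genes with the most distal peaks and those without a promoter peak. Other genes named within a family or as examples were picked once values were known. CACGTG and TAGGGGGC were added to the 11 consensus sequences after sequences were seen. No contrast could be tested, since the labels give 1 group with 2 libraries. Results were recomputed with the stricter list, the same number of strongest peaks per library, single replicates, other TSS windows, TSS sets, flanks, overlaps, strength measures, footprint sets and extensions. Merging overlapping peaks within a library and leaving out the Fezf2 window were added after seeing the data.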

Additional observations from a re-analysis of the deposited data

How the results depend on the processing

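Of 48 alternative values for the main results, 43 stayed within the set limit, 5 moved and 0 changed direction. A change of direction could be recorded for the strength ratio alone, so the 0 says nothing about the other results. Shares over all protein-coding genes were not among these values. The limit was 1.5 times for counts of genes, distal peaks and footprints. It was 1 SD between the libraries for density, shared distal peaks and the share with a consensus. For the strength ratio it was the 95% interval of the median log2 ratio, 0.132 to 0.443. Either of 2 values lies within 1 SD of their mean, so leaving out a replicate could not move density or the consensus share. The SD of shared distal peaks is not a spread between replicates, since both percentages count much the same overlaps. With the stricter peak list the mean distal count of the members was 33.5 instead of 80.5 and the density 1.09 instead of 2.62 per 100 kb. Requiring 50% reciprocal overlap lowered the mean share of shared distal peaks to 35.9%, from 66.3%. The share of footprints with any of the 11 consensus sequences was 2.96% without extension and 6.39% with 10 bp, instead of 4.82%. Leaving out a replicate gave 7 to 8 members with a promoter peak, 55 to 106 distal peaks, 1.79 to 3.45 per 100 kb, 164 to 313 footprints, 4.15% to 5.49% of footprints with a consensus, and 7 to 8 upper layer genes with a promoter peak. Of 72 values for single genes, lists and promoter footprints, 52 stayed within the limit and 20 moved. The distal count of 8 members moved by more than 1.5 times with the stricter list, and those of Foxp2, Sox5 and Zfpm2 also with equal numbers of strongest peaks (3, 15 and 9). No paired analysis was possible because there is 1 group. Read depth is unknown, so weak peaks called in 1 library cannot be told apart from differences in depth, and no error other than the spread of 2 libraries is available.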
